A study of Mus musculus with 24 samples.

Results

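The difference of the injury response between genotypes was measured for every gene as the log2 ratio of lesioned over naive ganglia in Mettl14cKO mice minus the same log2 ratio in wild-type (WT) mice. It was taken for all 13291 of 24421 gene symbols that passed a filter on low counts, whatever their change. The tissue was the L4/5 dorsal root ganglion (DRG), which holds the cell bodies of sensory neurons that project through the sciatic nerve. The contrast used 12 of the 24 libraries of the series, 3 in each of 4 groups. These were Mettl14cKO mice 1 day after a sciatic nerve lesion (SNLD1), Mettl14cKO naive mice, WT SNLD1 mice and WT naive mice. All were C57BL/6. The titles call the mutant Mettl14cKO, its genotype label reads Mettl14-/-, and the sources used here give neither the Cre driver nor the animals' age. The treatment label of all libraries names both a sham operation and a nerve crush, so whether the naive groups were sham-operated was not settled. Nothing in the labels says whether libraries of a group came from separate animals. Each group held libraries with and without Y-linked transcripts, so its 3 libraries did not all come from the same RNA. Whether each was a separate animal was not settled. The p-values cover the spread among these libraries only, part of which may be technical.

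METTL14 binds RNA beside the catalytic subunit METTL3, and together they place N6-methyladenosine (m6A) on messenger RNA, a mark read by proteins that alter splicing, translation and decay. When the peripheral axon of a sensory neuron is cut or crushed, its cell body switches on transcription factors such as Atf3, Jun and Sox11, then growth-associated proteins, neuropeptides and cytokines. A difference of injury effects asks whether that switch differs in size between the genotypes, apart from a level that already differs in naive ganglia. In bulk tissue, fewer cells of a type and less RNA per cell cannot be told apart.

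Mettl14 itself was read at 14.2, 16.9 and 15.6 CPM (counts scaled to library size) in Mettl14cKO SNLD1 libraries and at 14.2, 18.9 and 15.02 CPM in Mettl14cKO naive libraries, against 20.1, 20.7 and 19.4 CPM in WT SNLD1 libraries and 23.3, 22.9 and 24.1 CPM in WT naive libraries. All 6 Mettl14cKO libraries were below all 6 WT libraries, by 0.36 at SNLD1 and 0.55 in naive ganglia on the log2 scale, and neither genotype comparison of the gene passed the test (adjusted p = 0.345 and 0.316, edgeR quasi-likelihood test with Benjamini-Hochberg adjustment). The table holds 1 count per gene, so reads from a deleted part could not be set apart. Libraries held 5707837 to 12639160 counts and correlated within groups at 0.967 to 0.985 (Spearman, across genes). The 18 pan-neuronal markers summed to 14200 to 15800 CPM in Mettl14cKO SNLD1 libraries and 13000 to 15500 CPM in Mettl14cKO naive libraries. In WT they summed to 15200 to 17900 CPM at SNLD1 and 16400 to 17600 CPM in naive libraries. All libraries thus carried the labelled tissue's defining transcripts. The naive sums were lower in Mettl14cKO without overlap, and the part of that gap in other values was not tested. Transcripts of 4 Y-linked genes were at 0 to 0.14 CPM in 5 libraries and at 130 to 468 CPM in the other 7, with both kinds in each of the 4 groups. Neutrophil markers summed to 1960 and 1690 CPM in WT SNLD1 library 2 and WT naive library 2, against 278 to 996 CPM elsewhere.

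The differences were centred on 0 and spread about as widely as their own errors. Their median was 0.01, their SD 0.44 and their median standard error 0.34 on the log2 scale, and 48.4% of genes lay below 0. The central part ran from a 25th percentile of -0.21 to a 75th of 0.24, the 5th and 95th percentiles were -0.65 and 0.71, and the 1st and 99th were -1.18 and 1.26. In all, 96.2% of genes differed by less than 1 log2 unit. Divided by its standard error, the difference had an SD of 0.991 over genes.

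**Figure D1:**
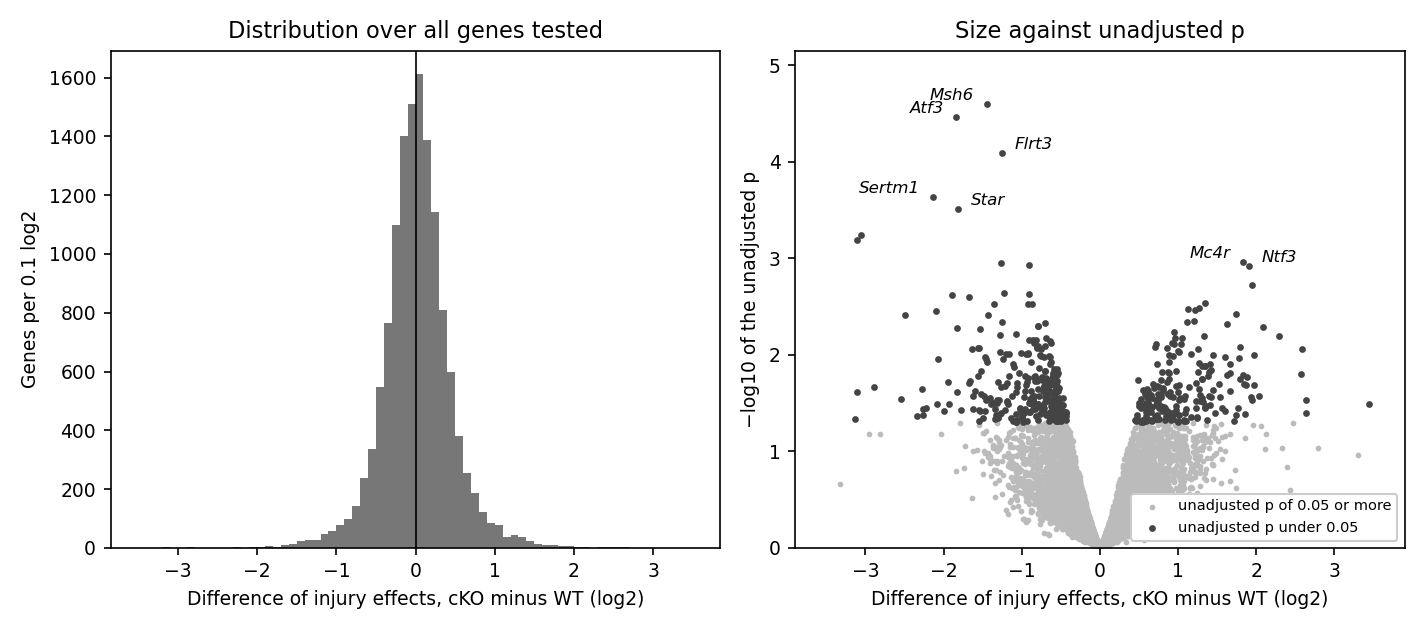
Left, number of genes per 0.1 log2 unit of the difference of injury effects (Mettl14cKO minus WT) over 13291 genes; right, the same difference against the −log10 of its unadjusted p, with darker points where that p is under 0.05. The bulk of genes lies within 1 log2 unit of 0, and Msh6, Atf3 and Flrt3 stand highest, on the negative side.

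The width of the distribution followed expression level. Among the 150 genes with a mean under 1 CPM the SD was 1.16 and the median standard error 0.946, and among the 1980 genes at 100 CPM or more both were 0.237. Differences beyond 1 log2 unit were mostly those of low genes. They numbered 229 below -1 and 278 above 1, and only 32 of each had a mean of at least 5 CPM. The extremes were St6galnac1, a sialyltransferase, at -3.33 and the interferon-induced gene Ifi44l at 3.44.

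No gene passed an adjusted p of 0.05 (0 of 13291, 0% called, edgeR quasi-likelihood test with Benjamini-Hochberg adjustment). At an unadjusted p under 0.05 there were 492 genes, or 3.7% of those tested, a share below the threshold itself. Of these 291 (2.19%) had a lower injury effect in Mettl14cKO and 201 (1.51%) a higher one. limma-voom also called 0 genes, and DESeq2 called 3, all lower: Atf3 (log2 difference -1.82, adjusted p = 0.00225), Msh6 (-1.44, 0.00244) and Flrt3 (-1.25, 0.00835). Without the filter on low counts edgeR called 24 genes, 14 lower and 10 higher, among them the same 3. The smallest adjusted p there was that of Ppbp (8.6e-12, edgeR quasi-likelihood test), with a standard error of 0.385, against 1.46 with the filter. With the filter its difference was -3.13, and 0.42 without Mettl14cKO naive library 1. Fabp4 and Cfd were also called without the filter, though their intervals with it include 0. With the filter but without WT SNLD1 library 2, edgeR called 1 gene, Atf3 (log2 difference -2.07, adjusted p = 0.0135). The count of lower genes at an unadjusted p under 0.05 was 181 without Mettl14cKO SNLD1 library 1 and 190 without WT naive library 3. The count of higher genes was 336 without Mettl14cKO SNLD1 library 3, 318 without Mettl14cKO naive library 1 and 333 without WT naive library 2.

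The 2 injury effects share no library, and across the 13291 genes they correlated at a Pearson r of 0.422 and a Spearman rho of 0.304. Over the 9561 genes with at least 5 CPM the values were 0.533 and 0.353. Points there share the tissue, the normalization and the depth limits of low genes, and genes are not independent replicates. By the same test, injury raised 83 genes (0.624% of those tested) and lowered 8 (0.0602%) in Mettl14cKO, and raised 126 (0.948%) and lowered 10 (0.0752%) in WT. Between the genotypes, 126 genes (0.948%) were higher and 68 (0.512%) lower in Mettl14cKO at SNLD1, and 23 (0.173%) higher and 15 (0.113%) lower in naive ganglia.

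**Figure D2:**
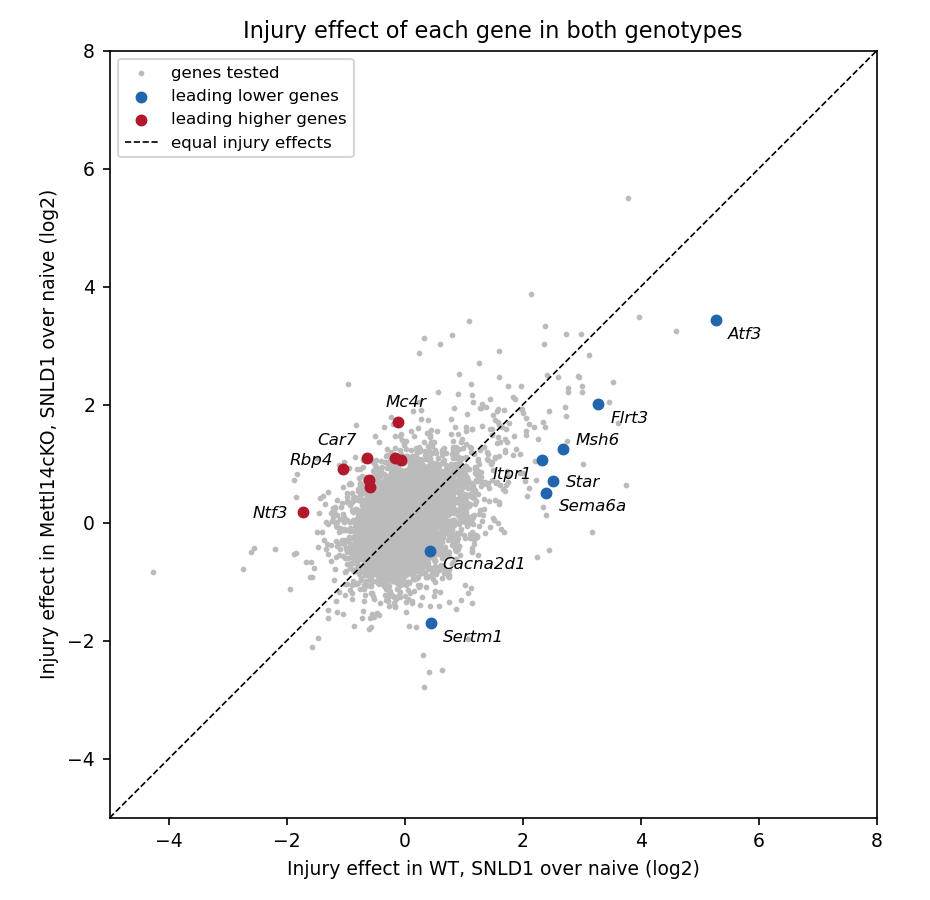
Injury effect of each gene in Mettl14cKO (vertical axis) against that in WT (horizontal axis), both as log2 of SNLD1 over naive, for 13291 genes, with the line of equal effects dashed. Atf3 (3.44 in Mettl14cKO, 5.27 in WT), Flrt3 and Msh6 sit below the line at the right, Ntf3 and Rbp4 above it at the left.

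The genes at an unadjusted p under 0.05 were of several kinds. Of the 291 lower genes, 42 had injury effects above 0 in both genotypes but smaller in Mettl14cKO, 27 were below 0 in both, and 222 (76.3%) were below 0 in Mettl14cKO and above 0 in WT. Of the 201 higher genes, 24 were above 0 in both and larger in Mettl14cKO, 7 were below 0 in both, and 170 (84.6%) were above 0 in Mettl14cKO and below 0 in WT. Over all genes tested, effects of opposite sign made up 37.3% of lower and 42.7% of higher ones. Selection on the difference itself favours such pairs, so nothing was read from them. The genotype gap was wider at SNLD1 than in naive ganglia for 216 (74.2%) of the lower and 136 (67.7%) of the higher genes, against 59.9% and 58.8% of all genes on each side.

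The 3 genes of smallest p were strongly raised by injury in both genotypes, and less so in Mettl14cKO. Atf3 encodes a stress-induced leucine zipper transcription factor and is the common marker of injured sensory neurons. It stood at 173, 197 and 163 CPM in Mettl14cKO SNLD1 libraries and at 14.2, 13.4 and 21.2 CPM in Mettl14cKO naive libraries. In WT it stood at 380, 243 and 505 CPM at SNLD1 and at 8.51, 9.41 and 11.1 CPM in naive libraries. Lesioned and naive groups were far apart in both genotypes, Mettl14cKO was wholly below WT at SNLD1, and Mettl14cKO was wholly above WT in naive ganglia. Atf3 rose 10.9-fold in Mettl14cKO (adjusted p = 4.53e-07) and 38.9-fold in WT (adjusted p = 2.49e-09, edgeR quasi-likelihood test with Benjamini-Hochberg adjustment). The difference was -1.84 ± 0.33 (SE) on the log2 scale, with a 95% interval of -2.54 to -1.13 and an adjusted p of 0.228.

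Msh6 encodes a subunit of the DNA mismatch recognition complex. Its level was 33.9, 39.6 and 31.8 CPM in Mettl14cKO SNLD1 libraries and 13.8, 16.9 and 13.9 CPM in Mettl14cKO naive libraries. It was 81.1, 79.6 and 108 CPM in WT SNLD1 libraries and 15.96, 13.2 and 12.5 CPM in WT naive libraries. Naive levels overlapped between the genotypes, and at SNLD1 all Mettl14cKO libraries were below all WT libraries. The gene rose 2.36-fold in Mettl14cKO and 6.47-fold in WT (adjusted p = 0.00179 and 8.78e-08), and the difference was -1.45 ± 0.26 (SE; 95% interval -1.99 to -0.91, adjusted p = 0.228, edgeR quasi-likelihood test). Of the other 19 genes tested from a list of 21 mismatch repair and replication licensing genes, none had an unadjusted p under 0.05, and the median of the list was 0.16.

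Flrt3, a leucine-rich repeat membrane protein that binds latrophilins and Unc5 receptors, was the most abundant of the 3. It reached 581, 657 and 544 CPM in Mettl14cKO SNLD1 libraries, against 137, 140.2 and 164 CPM in Mettl14cKO naive libraries. In WT it reached 760.2, 830.1 and 1095 CPM at SNLD1, against 78.6, 114 and 85.5 CPM in naive libraries. As for Atf3, the Mettl14cKO libraries were wholly above WT before injury and wholly below WT after it. The rise was 4.04-fold in Mettl14cKO and 9.64-fold in WT (adjusted p = 6.42e-06 and 1.06e-08), and the difference was -1.26 ± 0.25 (SE; 95% interval -1.78 to -0.74, adjusted p = 0.361, edgeR quasi-likelihood test).

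The sequences in front of these 3 genes are shown because all 3 genes rose after injury, and by less in Mettl14cKO; each is the 250 bases upstream of the annotated start, on the gene's strand, from RefSeq on GRCm38.p6. Msh6 lies on the plus strand (gene chr17:87975050-87990892, window chr17:87974800-87975049). Atf3 lies on the minus strand (gene chr1:191170296-191183333, window chr1:191183334-191183583), as does Flrt3 (gene chr2:140658198-140671476, window chr2:140671477-140671726). Capitals mark matches, on either strand, to TNACGTCA or TGACNTCA, forms of the cyclic AMP response element TGACGTCA with 1 base left free, chosen after the sequences had been read.
Msh6: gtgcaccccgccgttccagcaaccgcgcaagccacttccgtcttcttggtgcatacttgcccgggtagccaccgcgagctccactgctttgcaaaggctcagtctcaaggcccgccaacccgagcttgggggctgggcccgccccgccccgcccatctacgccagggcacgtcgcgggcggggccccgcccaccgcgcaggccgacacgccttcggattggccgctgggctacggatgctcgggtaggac
Atf3: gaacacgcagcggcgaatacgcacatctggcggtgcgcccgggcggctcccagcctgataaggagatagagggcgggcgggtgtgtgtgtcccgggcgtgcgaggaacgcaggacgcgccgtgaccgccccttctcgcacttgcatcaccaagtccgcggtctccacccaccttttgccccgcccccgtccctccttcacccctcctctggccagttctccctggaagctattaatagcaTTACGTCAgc
Flrt3: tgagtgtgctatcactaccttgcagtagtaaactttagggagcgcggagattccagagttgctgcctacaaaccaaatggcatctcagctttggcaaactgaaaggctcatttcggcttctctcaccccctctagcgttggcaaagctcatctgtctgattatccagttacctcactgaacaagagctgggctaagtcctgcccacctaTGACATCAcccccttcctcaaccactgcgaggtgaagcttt
Atf3 holds 1 match to TNACGTCA, beginning 10 bases before the start, and Flrt3 holds 1 match to TGACNTCA, beginning 41 bases before it. Msh6 holds neither. Matches to TNACGTCA occur in 2.65% and to TGACNTCA in 7.59% of 27025 promoters of the same length, and in 4.34% and 6.15% of the 10555 that belong to tested genes. The full element TGACGTCA, which both patterns include, occurs in 1.62% and the AP-1 letters TGANTCA in 6.87%, and none of the 3 windows holds either. Among tested genes the median difference was 0.01 both with and without TNACGTCA, and 3.28% of those with it and 2.14% of those without it were lower at an unadjusted p under 0.05. For TGACNTCA the shares were 3.54% and 2.10%. Both patterns were chosen after reading the windows of Atf3 and Flrt3, which are lower genes with a match. For the full element TGACGTCA the shares were 3.08% with it and 2.16% without it. For the AP-1 letters they went the other way, 1.73% with and 2.21% without. These shares were not tested. By the annotation, Msh6 overlaps Fbxo11 and Flrt3 overlaps Macrod2. Strand use in counting is not stated, so reads there could not be assigned beyond the authors' counts.

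Other leading lower genes rose in WT and had smaller effects in Mettl14cKO. Star, the protein that brings cholesterol into mitochondria for steroid synthesis, had 9.41, 6.76 and 14.5 CPM in Mettl14cKO SNLD1 libraries and 4.19, 7.68 and 6.95 CPM in Mettl14cKO naive libraries. In WT libraries it had 28.2, 25.1 and 30.6 CPM at SNLD1 and 3.58, 4.91 and 6.01 CPM in naive ganglia. The conditions overlapped in Mettl14cKO and were wholly apart in WT. Its injury effect passed in WT (5.79-fold, adjusted p = 3.90e-05) and not in Mettl14cKO (1.63-fold, adjusted p = 0.387), and the difference of the effects was -1.81 ± 0.41 (SE; adjusted p = 0.830, edgeR quasi-likelihood test).

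Itpr1, the calcium release channel gated by inositol trisphosphate, had 20.8, 17.2 and 29.6 CPM in Mettl14cKO SNLD1 libraries and 11.4, 8.73 and 12.04 CPM in Mettl14cKO naive libraries. In WT it had 50.3, 61.7 and 76.9 CPM at SNLD1 and 12.8, 9.82 and 14.6 CPM in naive libraries. The naive groups overlapped, and the SNLD1 groups did not. It rose 2.10-fold in Mettl14cKO and 5.08-fold in WT (adjusted p = 0.0457 and 9.27e-06), with a difference of -1.27 ± 0.33 (SE; adjusted p = 0.998, edgeR quasi-likelihood test). Sema6a, a membrane semaphorin, had 7.64, 6.34 and 10.1 CPM in Mettl14cKO SNLD1 libraries and 6.13, 3.49 and 7.08 CPM in Mettl14cKO naive libraries, against 15.9, 8.92 and 28.8 CPM in WT SNLD1 libraries and 4.16, 2.32 and 3.497 CPM in WT naive libraries. It was the 1 gene of the leading 12 whose SNLD1 groups overlapped. Speer4b, of a family of near-identical copies whose reads the counting could split, rose 12.5-fold in WT (adjusted p = 0.000418). It had 1.42, 1.69 and 2.10 CPM in Mettl14cKO SNLD1 libraries and 1.94, 0.349 and 0.993 CPM in Mettl14cKO naive libraries. In WT it had 4.75, 5.72 and 6.47 CPM at SNLD1 and 0.387, 0.818 and 0.152 CPM in naive libraries. The fold thus rests on naive levels under 1 CPM. The difference for Speer4b was -3.11 ± 0.75 (SE; adjusted p = 0.998, edgeR quasi-likelihood test).

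**Figure D3:**
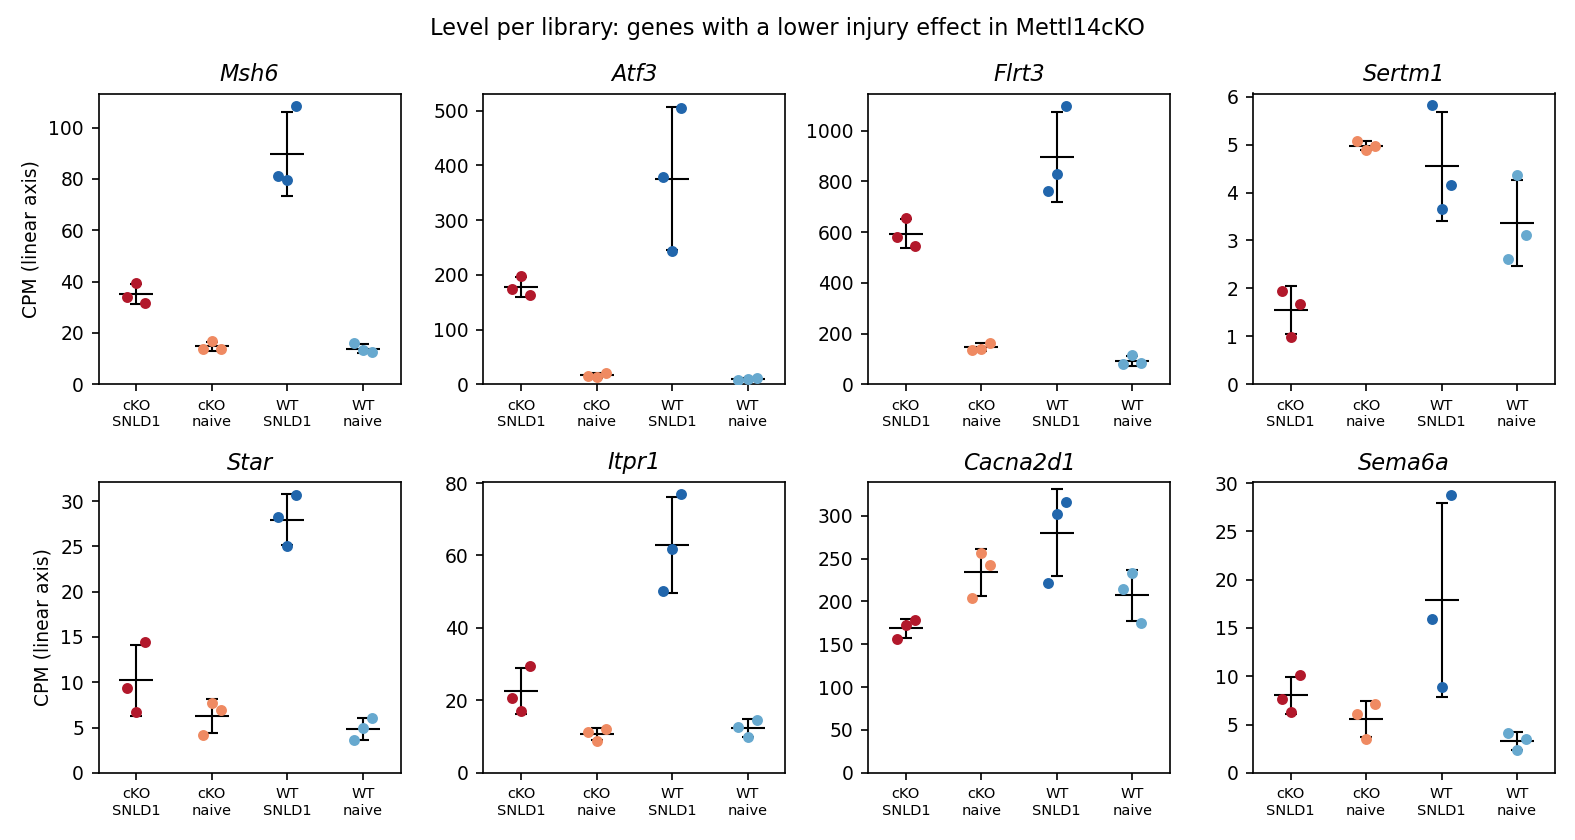
Level in CPM (linear axes) of 8 of the 12 genes of smallest p with a lower injury effect in Mettl14cKO, in groups of 3 libraries; points are libraries, bars the mean and SD. Msh6, Atf3, Flrt3, Star and Itpr1 are high in WT SNLD1, while Sertm1 and Cacna2d1 are lower in Mettl14cKO SNLD1 than in Mettl14cKO naive libraries.

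In other lower genes the mean Mettl14cKO level was lower after injury than before it. Cacna2d1, the alpha-2-delta-1 subunit of voltage-gated calcium channels, had 157, 172 and 178 CPM in Mettl14cKO SNLD1 libraries and 204, 256 and 243 CPM in Mettl14cKO naive libraries. It had 222, 302 and 316 CPM in WT SNLD1 libraries and 215, 233 and 175 CPM in WT naive libraries. The Mettl14cKO conditions did not overlap and the WT conditions did, but neither injury effect passed (adjusted p = 0.261 and 0.444), and the difference was -0.91 ± 0.23 (SE; adjusted p = 0.998, edgeR quasi-likelihood test). Sertm1 fell in Mettl14cKO (log2 injury effect -1.70, adjusted p = 0.0279), with 1.95, 0.987 and 1.68 CPM at SNLD1 and 5.08, 4.89 and 4.97 CPM in naive libraries, while WT had 5.83, 3.66 and 4.15 CPM at SNLD1 and 2.61, 4.36 and 3.12 CPM in naive libraries. Rev3l, the catalytic subunit of DNA polymerase zeta, had a difference of -0.91 ± 0.26 (SE). Dnttip1, part of a histone deacetylase complex, had -1.23 ± 0.34 (SE), and 6030443J06Rik, at 0.281 to 2.32 CPM, had -3.05 ± 0.73 (SE). The Mettl14cKO conditions of Dnttip1 overlapped, at 7.28, 5.92 and 6.73 CPM at SNLD1 and 9.42, 5.76 and 7.82 CPM in naive libraries. In WT it rose 2.04-fold without overlap (adjusted p = 0.0515, edgeR quasi-likelihood test). Among the 12 lower genes of smallest p, 11 had all Mettl14cKO SNLD1 libraries below all WT SNLD1 libraries, where 10.3% of all genes did. In naive ganglia 4 of the 12 had all Mettl14cKO libraries above all WT libraries, where 6.1% of all genes did. All Mettl14cKO SNLD1 libraries were above all Mettl14cKO naive libraries in 4 of the 12, against 8.3% of all genes, and all WT SNLD1 libraries above all WT naive libraries in 10, against 6.06%. The 12 were chosen on the same values, so these counts are a description.

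Among the higher genes, Mc4r and Gm4951 had an injury effect that passed the test in Mettl14cKO and not in WT. Mc4r, the melanocortin 4 receptor, had 5.68, 10.6 and 6.17 CPM in Mettl14cKO SNLD1 libraries and 2.39, 2.79 and 1.74 CPM in Mettl14cKO naive libraries. In WT it had 3.53, 2.86 and 2.44 CPM at SNLD1 and 2.42, 3.41 and 3.65 CPM in naive libraries. The Mettl14cKO SNLD1 libraries were above all 9 others. Its injury effect was 3.24-fold in Mettl14cKO (adjusted p = 0.0181) and 0.931-fold in WT (adjusted p = 0.9999), and the difference was 1.83 ± 0.47 (SE; adjusted p = 0.998, edgeR quasi-likelihood test). Gm4951 rose 3.88-fold in Mettl14cKO (adjusted p = 0.000299), with 28.8, 31.1 and 26.8 CPM at SNLD1 and 5.53, 7.86 and 8.94 CPM in naive libraries. In WT it had 17.6, 17.7 and 11.1 CPM at SNLD1 and 6.38, 10.6 and 9.05 CPM in naive libraries, a 1.78-fold effect that did not pass (adjusted p = 0.150). All WT SNLD1 libraries were nonetheless above all WT naive libraries. The difference for Gm4951 was 1.11 ± 0.34 (SE; adjusted p = 0.998, edgeR quasi-likelihood test).

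Mta2 and Zfp91 were lower in Mettl14cKO than in WT in naive ganglia without overlap, where 4.64% of all genes were. Mta2, a subunit of the NuRD chromatin complex, had 11.4, 10.6 and 10.8 CPM in Mettl14cKO SNLD1 libraries and 6.73, 3.32 and 5.09 CPM in Mettl14cKO naive libraries, against 7.67, 8.92 and 10.6 CPM in WT SNLD1 libraries and 8.61, 8.59 and 13.2 CPM in WT naive libraries. Zfp91, a zinc finger protein, followed the same order, with 15.3, 18.04 and 18.7 CPM in Mettl14cKO SNLD1 libraries and 9.86, 7.51 and 7.45 CPM in Mettl14cKO naive libraries, while WT had 17.2, 11.9 and 21.1 CPM at SNLD1 and 19.5, 13.0 and 19.5 CPM in naive libraries. For both genes the SNLD1 groups overlapped and the naive groups did not. The differences were 1.26 ± 0.37 for Mta2 and 1.13 ± 0.33 (SE) for Zfp91, and no injury or genotype effect of either passed the test. Trappc3, a subunit of a vesicle tethering complex, had 67.3, 73.4 and 71.3 CPM in Mettl14cKO SNLD1 libraries and 51.4, 21.7 and 25.5 CPM in Mettl14cKO naive libraries, and 1 naive library stood apart from the other two. Its difference of 1.21 ± 0.36 (SE) ran from 1.01 to 1.69 when each library was left out in turn.

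Ntf3 and Rbp4 had lower mean levels in WT after injury, and higher ones in Mettl14cKO. Ntf3 encodes neurotrophin-3, the growth factor of proprioceptive neurons. It had 13.3, 14.2 and 14.3 CPM in Mettl14cKO SNLD1 libraries and 15.99, 9.60 and 11.3 CPM in Mettl14cKO naive libraries. In WT it had 1.84, 0.572 and 1.83 CPM at SNLD1 and 2.998, 6.68 and 4.41 CPM in naive libraries. Both conditions were wholly higher in Mettl14cKO than in WT. Ntf3 fell in WT (0.301-fold, adjusted p = 0.0390) and its effect in Mettl14cKO was 1.13-fold (adjusted p = 0.876), with a difference of 1.91 ± 0.50 (SE; adjusted p = 0.998, edgeR quasi-likelihood test). Rbp4, the carrier of retinol in blood, had 14.9, 21.6 and 14.03 CPM in Mettl14cKO SNLD1 libraries and 10.2, 5.59 and 10.9 CPM in Mettl14cKO naive libraries, against 0.767, 1.72 and 3.54 CPM in WT SNLD1 libraries and 4.55, 2.86 and 5.09 CPM in WT naive libraries. Neither of its injury effects passed, and the difference was 1.95 ± 0.53 (SE).

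The secreted angiopoietin-like protein Angptl7 had 31.1, 30.7 and 32.0 CPM in Mettl14cKO SNLD1 libraries and 21.4, 22.4 and 13.0 CPM in Mettl14cKO naive libraries. In WT it had 16.3, 15.1 and 7.08 CPM at SNLD1 and 15.96, 16.6 and 25.5 CPM in naive libraries, and the difference was 1.34 ± 0.39 (SE). Cdo1, the cysteine dioxygenase, differed by 1.20 ± 0.37, the carbonic anhydrase Car7 by 1.74 ± 0.52, the acyltransferase Agpat2 by 1.63 ± 0.51 and the sorting nexin Snx11 by 2.09 ± 0.65 (SE). In 10 of the 12 higher genes of smallest p all Mettl14cKO SNLD1 libraries were above all WT SNLD1 libraries, where 9.66% of all genes were. The exceptions were Mta2 and Zfp91. These 12 too were chosen on the same values, so the count is a description.

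**Figure D4:**
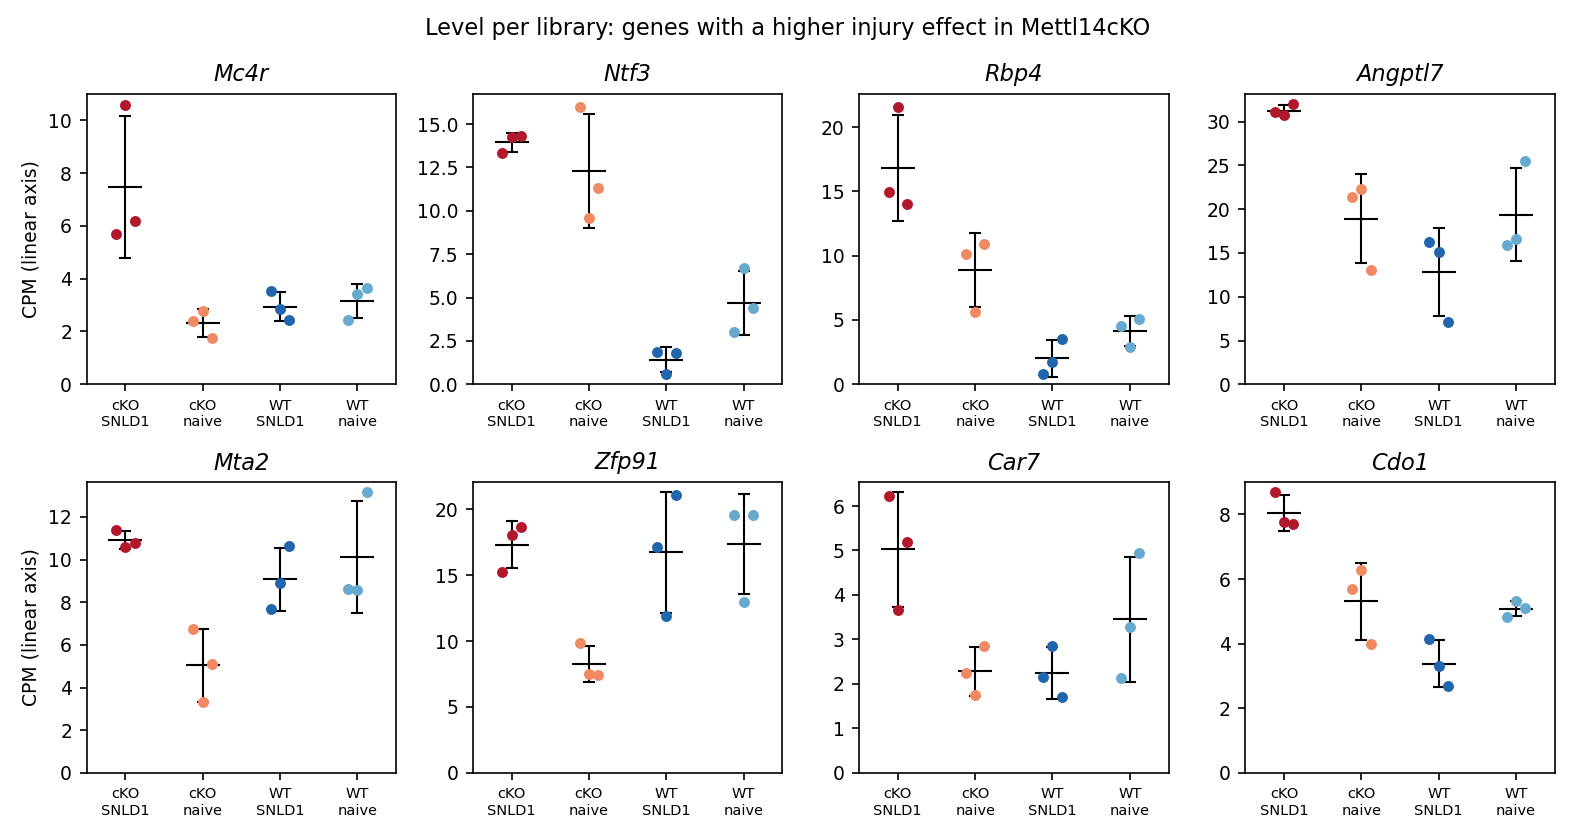
Level in CPM (linear axes) of 8 of the 12 genes of smallest p with a higher injury effect in Mettl14cKO, in groups of 3 libraries; points are libraries, bars the mean and SD. Mc4r is high in Mettl14cKO SNLD1 libraries alone, Ntf3 and Rbp4 are low in WT SNLD1 libraries, and Mta2 and Zfp91 are low in Mettl14cKO naive libraries.

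The largest differences among genes with at least 5 CPM had other patterns. Gbp2b, an interferon-induced GTPase with close paralogs, had 34.8, 26.9 and 42.5 CPM in Mettl14cKO SNLD1 libraries and 20.8, 24.6 and 18.1 CPM in Mettl14cKO naive libraries. WT libraries had 0.153, 0.114 and 0 CPM at SNLD1 and 0.0967, 0.409 and 0.532 CPM in naive ganglia. Its difference of 2.59 ± 0.88 (SE) was taken against WT levels of under 1 CPM. Fn3krp, a fructosamine kinase family member, was likewise near 0 in WT, at 1.38, 0.458 and 0.976 CPM at SNLD1 and 0.0967, 0.273 and 0.532 CPM in naive libraries, against 14.2 to 24.3 CPM in Mettl14cKO, and its difference was -1.53 ± 0.63 (SE). Ppbp, a platelet chemokine, had 41.3 CPM in Mettl14cKO naive library 1 and 1.05 and 1.37 CPM in the other two of that group, and its difference of -3.13 was 0.42 without that library.

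Fabp4 and Cfd, genes of adipocytes, stood out in the same libraries. Fabp4 had 65.2, 2.96 and 109 CPM in Mettl14cKO SNLD1 libraries and 9.42, 2.79 and 4.22 CPM in Mettl14cKO naive libraries, against 0.767, 7.55 and 3.78 CPM in WT SNLD1 libraries and 1.93, 4.09 and 0.456 CPM in WT naive libraries. Cfd had 19.4, 0 and 35.9 CPM in Mettl14cKO SNLD1 libraries. Both were high in Mettl14cKO SNLD1 libraries 1 and 3 and low in library 2. The differences were 2.33 ± 1.31 for Fabp4 and 2.39 ± 1.57 (SE) for Cfd, with intervals that include 0. A list of 20 adipocyte genes drawn up after these values were seen summed to 470 to 935 CPM in Mettl14cKO SNLD1 libraries, 417 to 458 CPM in Mettl14cKO naive libraries, 546 to 630 CPM in WT SNLD1 libraries and 483 to 540 CPM in WT naive libraries. Of its 14 tested members 12 were above 0, and Plin1 and Lep were at 0 in most libraries. Rbp4 and Cd36 are on that list. Its part in their values was not tested.

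Regeneration-associated genes are those whose induction accompanies axon regrowth. Of 42 listed genes 34 were tested, none was called, 9 were lower and 1 higher at an unadjusted p under 0.05, and 24 had a difference below 0. Over all genes, 2.19% were lower and 1.51% higher. This list, which holds Atf3 and Flrt3, and the other lists were chosen with earlier results of these data known. Counts of their members are therefore a description. The list's median difference was -0.26, against 0.01 for all genes, and its median injury effect was 0.70 in Mettl14cKO and 1.15 in WT. The median was -0.07 without WT SNLD1 library 3 and -0.53 without WT SNLD1 library 2. The summed level of all 42 genes was 7220 to 8810 CPM in Mettl14cKO SNLD1 libraries and 5600 to 6780 CPM in Mettl14cKO naive libraries, against 8110 to 9860 CPM in WT SNLD1 libraries and 5540 to 6580 CPM in WT naive libraries.

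Beside Atf3, Flrt3, Cacna2d1 and Sema6a, the lower members included Gpr151, an orphan receptor of injured sensory neurons. It had 27.5, 30.4 and 24.3 CPM in Mettl14cKO SNLD1 libraries and 5.98, 8.03 and 6.08 CPM in Mettl14cKO naive libraries, against 47.4, 44.2 and 71.6 CPM in WT SNLD1 libraries and 4.45, 8.32 and 2.58 CPM in WT naive libraries. Its difference was -1.43 ± 0.43 (SE). The transcription factor Klf6 had 163, 182 and 177 CPM in Mettl14cKO SNLD1 libraries and 124, 125 and 142 CPM in Mettl14cKO naive libraries, against 264, 243 and 399.9 CPM in WT SNLD1 libraries and 155, 135 and 114 CPM in WT naive libraries. Its difference was -0.75 ± 0.26 (SE). The BMP signal transducer Smad1 differed by -0.61 ± 0.26, the neuropeptide Nts by -0.83 ± 0.37 and Sez6l by -2.27 ± 0.91 (SE).

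The 1 higher member was the cytokine Il6. It had 9.95, 16.2 and 9.12 CPM in Mettl14cKO SNLD1 libraries and 0.448, 0 and 0.248 CPM in Mettl14cKO naive libraries, against 14.6, 13.8 and 8.54 CPM in WT SNLD1 libraries and 1.06, 1.36 and 0.380 CPM in WT naive libraries. The lesioned groups overlapped, naive levels were 0 to 1.36 CPM, and the difference was 1.72 ± 0.81 (SE). Sprr1a, a classic axotomy gene, did not pass the filter. It was read at 0, 0 and 0.14 CPM in Mettl14cKO SNLD1 libraries, against 1.68, 0.799 and 3.17 CPM in WT SNLD1 libraries, and at 0 to 0.455 CPM in naive libraries.

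Other injury genes had a difference whose interval included 0. Gadd45a, a growth arrest and DNA damage gene, had 51.2, 73.4 and 34.7 CPM in Mettl14cKO SNLD1 libraries, against 65.3, 37.3 and 74.0 CPM in WT SNLD1 libraries, and 4.23 to 8.69 CPM in naive libraries. Its difference was -0.27 with a 95% interval of -1.17 to 0.63. The intervals were -1.22 to 0.26 for the transcription factor Sox11, -0.17 to 1.58 for Jun, -0.35 to 0.81 for the neurotrophin Bdnf, -1.0 to 0.87 for the Fn14 receptor gene Tnfrsf12a, -0.60 to 0.26 for the growth-cone protein Gap43 and -0.52 to 0.51 for Anxa2. The intervals of Gadd45a and Sox11 reach below -1, and that of Jun reaches above 1, so differences of that size lie within them.

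Sensory channels and receptors gave a median of -0.15 over 36 tested genes. At an unadjusted p under 0.05, 5 were lower and 1 higher, where 2.19% and 1.51% of all genes were. The lowest member was Cacna2d1, at -0.91, which also counts among the lower regeneration-associated genes. The sodium channel of nociceptors Scn10a had 68.0, 74.4 and 70.6 CPM in Mettl14cKO SNLD1 libraries and 94.6, 82.1 and 98.7 CPM in Mettl14cKO naive libraries, against 129, 94.5 and 109 CPM in WT SNLD1 libraries and 93.2, 89.0 and 111 CPM in WT naive libraries. Its difference was -0.55 ± 0.22 (SE). Scn9a, its relative, differed by -0.56 ± 0.23, the itch receptor Mrgpra3 by -0.73 ± 0.28 and the GDNF receptor Gfra1 by -0.58 ± 0.25 (SE). Kcnk18, a potassium channel at 0.153 to 2.20 CPM, was the 1 higher member, at 1.76 ± 0.77 (SE). The list's median was -0.02 without Mettl14cKO naive library 3. Pan-neuronal markers had a median of 0.05, with Syt1 lower, at -0.48 ± 0.23 (SE).

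Cytoplasmic ribosomal protein genes, the structural parts of the ribosome, lay mostly above 0, and none passed the test. Of 79 tested, 76 had a difference above 0, as did 6852 of all 13291 genes, and the median was 0.35. At an unadjusted p under 0.05, 2 (Rps27 and Rpl29) were higher, where 1.51% of all genes were. Their summed level was 26800, 36300 and 19400 CPM in Mettl14cKO SNLD1 libraries and 25400, 20400 and 16900 CPM in Mettl14cKO naive libraries. It was 21800, 20800 and 17500 CPM in WT SNLD1 libraries and 16600, 19900 and 20600 CPM in WT naive libraries. The groups overlapped in both genotypes, and Mettl14cKO SNLD1 library 2 was highest. The median was 0.09 without that library and 0.59 without Mettl14cKO SNLD1 library 3. The count of 2 higher genes was 36 without Mettl14cKO SNLD1 library 3, 16 without Mettl14cKO naive library 1, 4 without WT SNLD1 library 1 and 14 without the filter. In the same order, 2.48%, 2.34%, 1.79% and 2.08% of all genes were higher. The count was 0 without Mettl14cKO SNLD1 library 1 or 2, Mettl14cKO naive library 2 or 3, WT SNLD1 library 2 or WT naive library 3, and 0 in limma-voom. It was 1 without WT SNLD1 library 3. Reads of these genes can be split with their processed pseudogenes. The 41 tested translation factors had a median of -0.02.

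**Figure D5:**
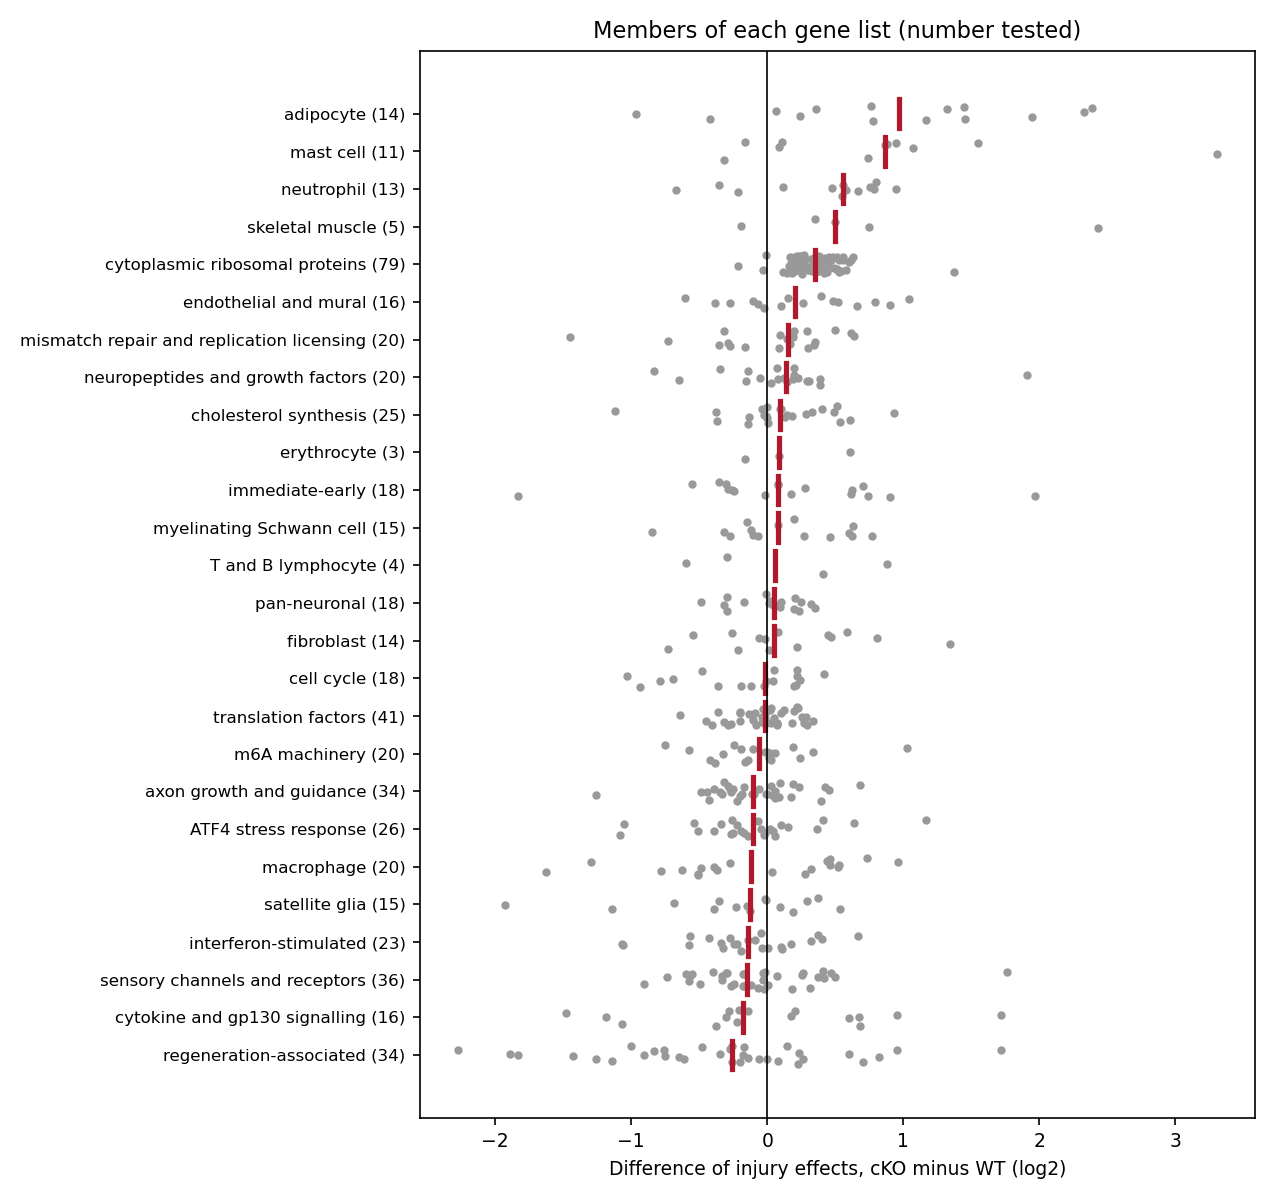
Difference of injury effects (Mettl14cKO minus WT, log2) of every tested member of 26 gene lists, with the list median as a red bar and the number tested in brackets; vertical jitter carries no value. Regeneration-associated genes have the lowest median (-0.26), and the ribosomal protein genes form a tight block above 0. Adipocyte members (-0.967 to 2.39) and mast cell members (-0.316 to 3.3) are scattered. The adipocyte list was drawn up after the values were seen.

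Of the 26 list medians, 14 changed sign when 1 library was left out, and 12 did not. Those of the regeneration-associated, sensory channel and ribosomal protein lists were among the 12. Markers of other cells differed by library. The 16 fibroblast markers summed to 3050 to 4770 CPM in Mettl14cKO SNLD1 libraries and 2310 to 3890 CPM in Mettl14cKO naive libraries, against 2010 to 2690 CPM in WT SNLD1 libraries and 2080 to 2360 CPM in WT naive libraries. Angptl7 and Pdgfra were the 2 of 14 tested members that were higher at an unadjusted p under 0.05, where 1.51% of all genes were. Pdgfra, a growth factor receptor, differed by 0.81 ± 0.33 (SE). The part of the fibroblast list in those values was not tested. The 12 mast cell markers summed to 94.4 to 114 CPM in Mettl14cKO SNLD1 libraries and 54.9 to 98.0 CPM in Mettl14cKO naive libraries, against 67.5 to 83.8 CPM in WT SNLD1 libraries and 49.9 to 74.9 CPM in WT naive libraries. Of 11 tested 9 were above 0, with a median of 0.86, and none had an unadjusted p under 0.05. Satellite glia had a median of -0.13, with 2 of 15 tested members lower at an unadjusted p under 0.05, where 2.19% of all genes were. The 2 members were Gfap, the glial filament that is raised in reactive glia, at -1.92 ± 0.83, and Ptprz1 at -0.68 ± 0.29 (SE). Gfap had 2.49, 3.66 and 2.25 CPM in Mettl14cKO SNLD1 libraries and 0.299, 1.92 and 0.497 CPM in Mettl14cKO naive libraries, against 2.91, 3.43 and 5.98 CPM in WT SNLD1 libraries and 0.193, 0.273 and 0.456 CPM in WT naive libraries. Its difference was -0.86 without Mettl14cKO naive library 2, and the satellite glia median was 0.08 without Mettl14cKO naive library 1. Myelinating Schwann cell and endothelial lists had medians of 0.08 and 0.21.

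The MeRIP-seq libraries of the series gave a second measurement of the WT side. All 10 were fitted together as 4 groups, 3 m6A pulldown libraries per condition included, so filter, scaling and errors rest on these too. The injury effect compared the 2 SNLD1 with the 2 naive input libraries. Their SNLD1 totals were 927807 and 19653733 counts, the median standard error of a log2 injury effect was 1.17, and 0 of 14705 genes passed with either scaling (59 higher and 67 lower at an unadjusted p under 0.05, edgeR quasi-likelihood test). Atf3 had 495 and 577 CPM in SNLD1 inputs, against 9.92 and 17.6 CPM in naive inputs, a log2 effect of 5.28 ± 1.30 (SE), beside 3.44 in Mettl14cKO and 5.27 in WT RNA-seq. Msh6 had 2.65 ± 0.89 (SE) in inputs, beside 1.24 in Mettl14cKO and 2.69 in WT RNA-seq. Flrt3 had 2.44 ± 1.09 (SE) in inputs, beside 2.01 in Mettl14cKO and 3.27 in WT RNA-seq. Star had 2.48 ± 1.08, Itpr1 2.14 ± 1.121 and Ntf3 -2.46 ± 1.23 (SE) in inputs. Of the 24 genes of smallest p, 23 had an input value. It was nearer the WT than the Mettl14cKO RNA-seq value for 14, Msh6, Atf3, Star, Itpr1 and Ntf3 among them, and nearer the Mettl14cKO value for 9. Those 9 were Flrt3, Speer4b, Cacna2d1, Rev3l, Mc4r, Rbp4, Mta2, Trappc3 and Snx11. Mc4r had 2.39 in inputs, beside 1.71 in Mettl14cKO and -0.11 in WT RNA-seq. Over the 282 lower genes found in both tables it was nearer WT for 113 (40.1%), over 197 higher genes for 84 (42.6%), and over all 13100 genes for 42.9%. The median input effect of the lower genes was -0.16 with TMM and -0.03 with median-ratio (RLE) scaling, beside medians of -0.46 in Mettl14cKO and 0.34 in WT RNA-seq.

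The m6A site lists, from miCLIP of WT ganglia with 1 naive and 1 lesioned library (titled SNL), allowed a look at what the contrast had not used. The lists held 29291 distinct sites, and 5882 of the tested genes held at least 1 of them. Genes with 0 sites had a median difference of 0.01 and genes with 6 or more sites also 0.01, and 1.95% and 2.96% of them were lower at an unadjusted p under 0.05. The corresponding shares of higher genes were 1.71% and 1.38%. The 2 classes also differed in level, with a median of 10.1 CPM at 0 sites and 25.1 CPM at 6 or more. Counting only sites with at least 3 mutated reads left 10 genes with 6 or more, and their median was 0.17. Of the 24 genes of smallest p, 8 held at least 1 site and 16 held 0. Among the lower genes Atf3 held 15, Flrt3 11, Cacna2d1 5, Sema6a 3 and Sertm1 1, and among the higher genes Zfp91 held 9, Snx11 7 and Agpat2 1. Msh6, Star, Itpr1, Mc4r, Ntf3 and Rbp4 were among those with 0.

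All 15 Atf3 sites were in the lesioned list and none in the naive list, where the gene's WT RNA level was 8.51 to 11.1 CPM. They spread over chr1:191170585-191183151 on the minus strand, each covered by 6 to 22 reads, of which a share of 0.0556 to 0.5 was mutated. Their letters around the modified base, in capitals, included ggAcc at 2 sites, agAcc at 2, tgAcc at 3 and tgAca at 2. Flrt3 held 11 sites in the lesioned list over chr2:140659687-140671391 and 1 in the naive list, at chr2:140660667, which the lists share. Its ggAcc occurred at 3 of the 11, agAct at 2 and gaAct at 2. Cacna2d1 held 5 sites in the lesioned list and 1 in the naive list. Sites were assigned to gene spans without comparing strand. Reads are given only at listed sites, so for a site missing from 1 list, undetected and absent cannot be told apart.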

How the data were processed

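RNA-seq of 12 libraries was analysed. The authors deposited whole-number counts per gene symbol, unnormalised, in 1 table for RNA-seq and 1 for MeRIP-seq, and miCLIP site lists whose value, given in a score field, equalled mutated over covering reads at all sites within 1e-05. Per the submitters' processing notes, Trimmomatic, STAR, DESeq2 and mm10 were used; the sources used here give no versions, roles or counter. Libraries followed Smart-seq2 on poly(A) RNA, per the labels' protocols.

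Counts were fitted in R 4.3.3 with edgeR 4.0.16 (filterByExpr, TMM, quasi-likelihood test) as 4 groups of 3 libraries, and p-values adjusted by Benjamini-Hochberg over all genes tested. The threshold was 0.05. CPM are TMM-scaled counts; CPM is not divided by gene length, so levels are compared within a gene. Standard errors are the log2 value over the root of F, and intervals are 95%. Alternatives used DESeq2 1.42.0 and limma 3.58.1. The pipeline was tested on simulated data. Python 3.11.15, pandas 2.3.3 and matplotlib 3.10.9 were used for the rest. RNA-seq totals differed by up to 2.21 times.

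Named genes are the 12 of smallest p per direction, the 5 largest differences per direction at 5 CPM or more, the 2 of smallest p per list of 26, and 8 chosen genes, Mettl14, Mettl3, Atf3, Jun, Sox11, Gap43, Sprr1a and Flrt3. Other list members named and the adipocyte list were picked with values in view. The members and lists were chosen with earlier results of these data known. Gene positions and overlaps come from a GRCm38.p6 gene table, in which 13258 of the tested symbols matched and 33 did not; mm10 is the same assembly. Alternatives were other scalings and tests, no filter and a stricter one, each library left out, a Y-linked covariate, and a replicate block. Whether libraries pair by replicate number was not settled, and the main fit used no pairing. Values of 1 named gene are not reported here.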

Additional observations from a re-analysis of the deposited data

How the results depend on the processing

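Of 1620 values of the 78 named genes under 21 alternatives, 1583 kept their direction and side of the threshold, 19 newly passed it and 18 in 8 genes reversed. Leaving out each library gave 0 to 1 called genes, 181 to 425 lower and 141 to 336 higher genes at an unadjusted p under 0.05, and a spread (SD) of 0.476 to 0.534. Without the filter 24 genes were called and 441 were higher, with a spread of 1.32; the stricter filter gave 0.336, with fewer low genes tested. DESeq2 called 3. Leaving out both WT libraries of number 2, chosen after seeing the data, gave a spread of 0.522. Reversals when a library was left out ran from -3.86 to 0.42 for Ppbp, -0.18 to 2.09 for S100a8, -0.45 to 1.99 for S100a9, -1.20 to 0.041 for Cd79b, -0.24 to 0.14 for Mettl3, -1.45 to 6.83 for Kdm5d, -0.50 to 0.43 for Slc4a1 and -0.98 to 11.2 for Eif2s3y. S100a9 was -0.0917 with the Y-linked level as covariate and Kdm5d 0.0643 in limma-voom. The cause was not tested.

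With the replicate number as a block, 0 genes were called, 339 were lower and 295 higher, and Eif2s3y was -0.55. Same-numbered libraries deviated together beyond 0.1 in 8 of 18 pairs (-0.06 to 0.57), with the highest value for the WT libraries of number 2. Of 12 libraries, 6 correlated best with their own number. Whether the numbers pair the libraries was not settled. Depth limits genes under 1 CPM, whose median standard error was 0.946.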

Other observations

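Members picked below at an unadjusted p under 0.05 stand against 2.19% lower and 1.51% higher over all genes. Cholesterol genes were near the centre of the distribution, with a median difference of 0.09 over 25 genes. Stard4, a sterol carrier, differed by 0.54 ± 0.24 (SE). The 23 interferon-stimulated genes had a median of -0.14 and 1 lower member, Ifit3, at -1.06 ± 0.42 (SE), with 46.3 to 128 CPM in Mettl14cKO naive libraries and 32.3 to 56.6 CPM in WT naive libraries. The list's median ran from -0.33 without WT naive library 2 to 0.06 without WT naive library 1, and Ifit3 was -0.58 without Mettl14cKO naive library 2.

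Immediate-early genes had a median of 0.08 over 18 genes. Beside Atf3, Arc, at 0.175 to 1.95 CPM, and Btg2 were the members at an unadjusted p under 0.05, both higher, at 1.97 ± 0.77 and 0.62 ± 0.27 (SE). Of 16 cytokine and gp130 signalling genes, Tyk2 and Csf1 were lower, at -1.19 ± 0.50 and -1.07 ± 0.50 (SE). The m6A machinery list had 20 tested genes, a median of -0.06 and no member at an unadjusted p under 0.05; Ythdc2, an m6A reader, had the smallest p, at -0.57 ± 0.31 (SE). The ATF4 stress response, cell cycle, axon growth and guidance, macrophage and neutrophil lists had medians of -0.11, -0.02, -0.10, -0.12 and 0.56. The neutrophil median was -0.60 without WT naive library 2 and 1.80 without WT SNLD1 library 2, the macrophage median 0.17 without WT SNLD1 library 2. Skeletal muscle, erythrocyte and lymphocyte lists had 5, 3 and 4 tested members and medians of 0.50, 0.08 and 0.06.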
